A study of Mus musculus with 4 samples.

Results

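The CDK inhibitor genes are the 7 mouse genes whose products bind and block cyclin-dependent kinases, the enzymes that drive cells through the division cycle. They were taken by gene symbol as Cdkn1a, Cdkn1b and Cdkn1c of the CIP/KIP family and Cdkn2a, Cdkn2b, Cdkn2c and Cdkn2d of the INK4 family, 7 of the 50600 genes in the deposited table, and all 7 were tested. RNA was sequenced from 4 libraries in 2 groups of 2. The 6F group held passage 2 adipose-derived regenerative cells (ADRCs, mesenchymal cells grown out of inguinal and axillary fat) that had received 6 factors, not named in the labels, by lentivirus and were sorted for GFP at 3 weeks. Their strain label is C57BL/6-Tg (Myh6-EGFP) MG3Tm; MG3, in which the promoter of the cardiac myosin gene Myh6 drives EGFP, so a cell entered this group only if that promoter was active. The ADRC group held passage 2 cells of mice at 8 weeks of age with the strain label C57BL/6J and no factors, although their titles name the reporter. Transduction, time in culture, sorting and strain label differ between the groups together, and their parts cannot be told apart. Whether a group's 2 libraries are separate cultures is not in the labels, and the spread behind each p-value may be technical.

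CIP/KIP proteins (p21, p27 and p57) bind complexes of cyclins with several kinases, above all those of CDK2 and CDK1. INK4 proteins (p16, p15, p18 and p19) bind CDK4 and CDK6 alone and keep them from the D-type cyclins, which leaves the retinoblastoma protein active and E2F target genes off. The Cdkn2a gene also encodes Arf from a second start and another reading frame, and Arf shields p53 from its ligase Mdm2. In cultured mouse fibroblasts and mesenchymal cells p16, Arf and p15 are known to build up with passage, and p21 is a classical p53 target.

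Exon reads came to 7593772 and 6986223 in 6F libraries a and b, against 2273897 and 2662128 in ADRC libraries a and b. The header gives 6F a another lane label than the other 3 libraries, so a lane and a library cannot be told apart within 6F. Markers of mesenchymal cells summed to 17030 and 22260 CPM (exon reads scaled by TMM-adjusted library size) in 6F and 29520 and 26800 in ADRCs, with 8 of 8 detected in each library. Cardiomyocyte markers summed to 1611 and 920 CPM in 6F against 15.4 and 24.3 CPM in ADRCs. Myh6, whose promoter drives the EGFP used for sorting, is among these 6 markers, so this sum is not independent of the sort. Macrophage markers (6 of 7 found in the table) summed to 10.3 and 107 CPM in 6F, with 3 of them at 0 in 6F a, against 251 and 270 CPM in ADRCs. Endothelial markers summed to 12.1 and 27.6 CPM in 6F against 35.6 and 40.1 CPM in ADRCs, and adipocyte markers to 14.97 and 3.62 CPM in 6F against 0.481 and 0.809 CPM in ADRCs, with Lep at 0 in all 4 libraries. The part of these cells in the results that follow was not tested, and in bulk RNA fewer cells of a type and less RNA per cell cannot be told apart.

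The stretches just before the starts of the 3 genes that rose are shown because 2 of the genes have more than 1 start and 2 of them lie side by side. They are from RefSeq (GRCm38.p6), run 5′ to 3′ along the gene and stop before the first base that GENCODE M21 places in an exon. Capitals mark the GC box, GGGCGG on either strand, and the p53 half-site consensus. TATAAA and CCAAT were searched too on both strands and lie in none of the 5 stretches. The half-site was added to the search after the first Cdkn1a stretch had been read, so its presence there is no independent observation.
Cdkn1a upstream start, chr17:29090729-29090975 (+): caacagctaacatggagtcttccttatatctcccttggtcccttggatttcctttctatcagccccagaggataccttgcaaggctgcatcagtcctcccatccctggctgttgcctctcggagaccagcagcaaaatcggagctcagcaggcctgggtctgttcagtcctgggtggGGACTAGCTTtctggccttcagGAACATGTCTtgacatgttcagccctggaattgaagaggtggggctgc
Cdkn1a downstream start, chr17:29093519-29093768 (+): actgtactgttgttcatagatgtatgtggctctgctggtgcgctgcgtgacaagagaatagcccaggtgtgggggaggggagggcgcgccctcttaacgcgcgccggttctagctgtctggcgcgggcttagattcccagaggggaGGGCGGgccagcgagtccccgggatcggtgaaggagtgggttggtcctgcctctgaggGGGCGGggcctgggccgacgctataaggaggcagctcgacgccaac
Cdkn2a p16 start, chr4:89282193-89282442 (-): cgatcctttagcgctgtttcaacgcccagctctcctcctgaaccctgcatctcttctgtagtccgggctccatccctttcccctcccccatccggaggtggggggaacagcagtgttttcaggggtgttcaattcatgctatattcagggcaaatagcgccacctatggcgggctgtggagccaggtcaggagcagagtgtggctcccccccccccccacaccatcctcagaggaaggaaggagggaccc
Cdkn2a Arf start, chr4:89294654-89294869 (-): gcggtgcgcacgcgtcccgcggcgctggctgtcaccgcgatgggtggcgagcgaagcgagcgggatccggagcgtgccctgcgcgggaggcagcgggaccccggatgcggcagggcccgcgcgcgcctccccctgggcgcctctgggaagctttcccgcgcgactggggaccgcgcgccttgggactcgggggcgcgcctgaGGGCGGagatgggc
Cdkn2b start, chr4:89311040-89311282 (-): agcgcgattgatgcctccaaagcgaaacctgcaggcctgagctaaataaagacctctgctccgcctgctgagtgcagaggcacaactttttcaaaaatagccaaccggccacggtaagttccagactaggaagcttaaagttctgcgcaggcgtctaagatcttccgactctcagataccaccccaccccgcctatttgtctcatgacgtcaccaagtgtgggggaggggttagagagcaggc
Before the upstream Cdkn1a start lie 2 half-sites and no GC box. Before the downstream one lie 2 GC boxes and no half-site. The Arf start has 1 GC box, and the p16 and Cdkn2b stretches hold neither motif. Of 32817 mouse promoters, 32.7% hold a GC box in the 250 bases before the start, 7.12% a p53 half-site, 12.4% TATAAA and 33.8% CCAAT. The Arf stretch is 78.7% G and C, against 60.0% for the p16 stretch and a median of 52.4% over all promoters. These matches are letters only and say nothing of binding.

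Of the 7 genes, Cdkn1a, Cdkn2a and Cdkn2b were higher in 6F cells, Cdkn2c was lower, and Cdkn1b, Cdkn1c and Cdkn2d were not called. They were tested with edgeR's quasi-likelihood test, and p-values were adjusted by Benjamini-Hochberg across the 12573 genes tested, at a threshold of 0.05. Over all genes tested 24.2% were called higher and 22.8% lower, so 47.0% were called at all, and 4 of 7 is close to that. Both 6F libraries lay above both ADRC libraries for 3 of the 7 genes and below them for 1, against 40.5% above and 37.4% below over all genes tested, 77.8% together. The 4 of 7 is thus under the share over all genes. Scaled by library size alone, 3920 of all genes tested were called higher and 2128 lower, against 3038 and 2870 with TMM, and the calls of the 7 stayed at 3 higher and 1 lower. With the 6F libraries thinned to 2468012 exon reads each, the calls of the 7 also stayed at 3 higher and 1 lower, with log2 differences of 1.86 for Cdkn1a, 3.83 for Cdkn2a, 1.59 for Cdkn2b and -1.34 for Cdkn2c. Without 6F a 5 of the 7 were called higher, where 35.0% of the 12081 genes then tested were called higher, against 24.2% with all 4 libraries. The fit without 6F a has a lone 6F library and so no spread within 6F. The median log2 fold change (6F over ADRC) was 0.82 for the 7 and 0.07 for all genes tested. Levels are given as RPKM, reads scaled by exon length and by TMM-scaled library size, so that genes can be set side by side.

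**Figure D1:**
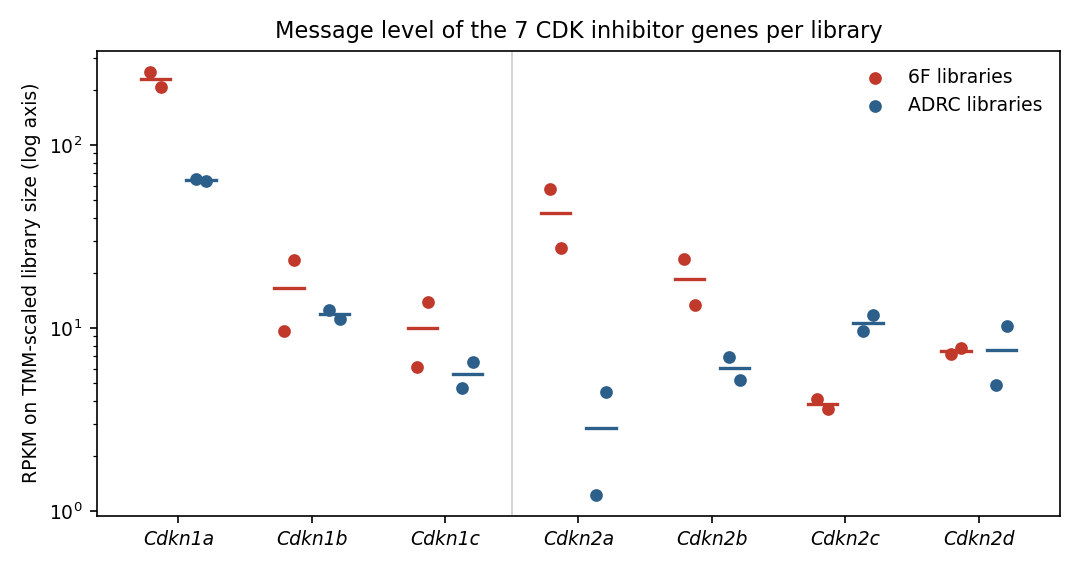
Level of each CDK inhibitor gene per library (points) and group mean (bars), as RPKM on a log axis, with 6F left of ADRC and the CIP/KIP genes left of the line. The groups stand apart for Cdkn1a, Cdkn2a and Cdkn2b, with 6F higher, and for Cdkn2c, with 6F lower.

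Cdkn1a (ENSMUSG00000023067, chr17:29090976-29100727, + strand) encodes p21, the inhibitor most directly switched on by p53. It had 4629 and 3437 exon reads in 6F libraries against 301 and 351 in ADRC libraries, or 251 and 207 RPKM against 65.2 and 63.9 RPKM. Both 6F libraries were far above both ADRC libraries, and it was the highest of the 7 in every library. The mean was 229 ± 31.1 RPKM in 6F and 64.5 ± 0.916 RPKM in ADRCs (SD, n = 2 each). The fitted difference was 3.55-fold (log2 1.83 ± 0.17 SE; edgeR adjusted p = 0.00057), higher than that of 88.7% of genes tested. Leaving out either ADRC library kept the call, with log2 differences of 1.81 without ADRC a and 1.79 without ADRC b. The lone ADRC library was then assumed to vary like the 6F group. A gene model still awaiting experimental evidence, AC167363.2, lies on the other strand within Cdkn1a, and the kit is not named as marking strand, so its reads cannot be told apart.

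Cdkn1b (ENSMUSG00000003031, chr6:134920401-134925513, + strand) encodes p27, which holds resting cells out of the cycle. It had 9.63 and 23.5 RPKM in 6F libraries against 12.6 and 11.2 RPKM in ADRC libraries. The ADRC values lie between the 6F values, and 6F a had 0.410 times the level of 6F b. The log2 difference was 0.48 ± 0.40 SE (edgeR adjusted p = 0.367). Without 6F a it was 1.00, and without 6F b it was -0.27, so the direction rests on which 6F library is kept. A lone 6F library gives the fit no spread within 6F, so no p-value is given for these.

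Cdkn1c (ENSMUSG00000037664, chr7:143458339-143461050, - strand) encodes p57, an imprinted inhibitor expressed from the maternal copy. It had 6.16 and 13.9 RPKM in 6F libraries against 4.72 and 6.55 RPKM in ADRC libraries. 6F b was highest and 6F a lay among the ADRC values. The log2 difference was 0.82 ± 0.45 SE (edgeR adjusted p = 0.179). Without 6F a it was 1.29 and without 6F b 0.14. The antisense gene Gm44732 that overlaps it had 0 reads in all 4 libraries.

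Cdkn2a (ENSMUSG00000044303, chr4:89274471-89294653, - strand) encodes p16 and Arf. It had 558 and 239 exon reads in 6F libraries against 3 and 13 in ADRC libraries, or 57.5 and 27.4 RPKM against 1.23 and 4.49 RPKM. It was second of the 7 in both 6F libraries and last in both ADRC libraries. The fitted difference was 14.2-fold (log2 3.83 ± 0.59 SE; edgeR adjusted p = 0.0033), higher than that of 96.0% of genes tested. From pooled reads the ratio was 14.4, with a counting interval of 8.81 to 25.3. Its size depends on the ADRC library: the log2 difference was 3.21 without ADRC a and 5.06 without ADRC b, and 3.19 and 4.28 without 6F a and 6F b. All stayed past the threshold, with the lone library assumed to vary like the other group.

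The p16 and Arf transcripts in GENCODE start 12461 bases apart and share 575 exon bases, with 277 of their own for p16 and 320 for Arf. The deposited exon count covers the 1172 bases in either, so how many of the Cdkn2a reads are p16 and how many Arf cannot be told from it.

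Cdkn2b (ENSMUSG00000073802, chr4:89306299-89311039, - strand) encodes p15, known as a target of TGF-beta signalling, and lies 11645 bases from Cdkn2a on the same strand. It had 23.8 and 13.4 RPKM in 6F libraries against 6.91 and 5.23 RPKM in ADRC libraries. Both 6F libraries were above both ADRC libraries, which had 20 and 18 reads. The fitted difference was 3.08-fold (log2 1.62 ± 0.38 SE; edgeR adjusted p = 0.0143). The call was lost without ADRC a (log2 1.80) and without ADRC b (1.41), with the lone ADRC library assumed to vary like the 6F group. Fewer of all genes were called in those fits as well.

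Cdkn2c (ENSMUSG00000028551, chr4:109660876-109667189, - strand) encodes p18 and was the only member that fell. It had 4.09 and 3.60 RPKM in 6F libraries against 9.68 and 11.8 RPKM in ADRC libraries. Both 6F libraries were lower than both ADRC libraries, and 2.79-fold lower by the fit (log2 -1.48 ± 0.24 SE; edgeR adjusted p = 0.00395). The call held with each library left out, though only narrowly without ADRC b, where the log2 difference was -1.35. By mean level only Cdkn1a and Cdkn1b were above it in ADRCs, and it was last of the 7 in 6F.

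Cdkn2d (ENSMUSG00000096472, chr9:21288410-21291407, - strand) encodes p19Ink4d, a protein unrelated to Arf. It had 7.21 and 7.76 RPKM in 6F libraries against 4.89 and 10.3 RPKM in ADRC libraries. The 6F values lie between the ADRC values, and the log2 difference was -0.04 ± 0.38 SE (edgeR adjusted p = 0.943). Its sign changed when single libraries were left out, 0.59 without ADRC b and -0.49 without ADRC a, and it was called in neither.

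**Figure D2:**
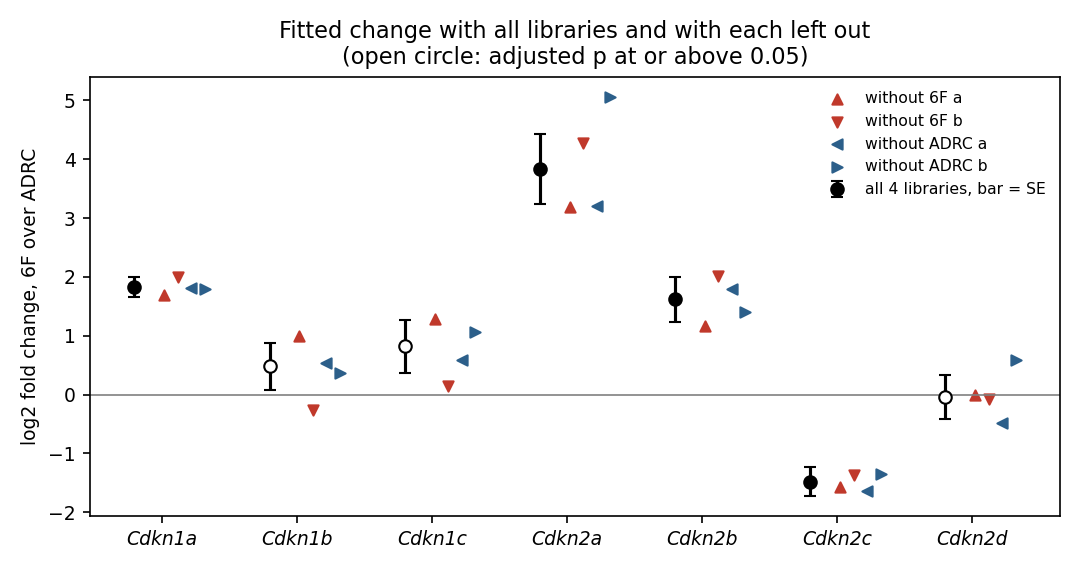
Fitted log2 fold change (6F over ADRC) of each gene with all 4 libraries (circles, bar = SE; open where the adjusted p is 0.05 or above) and with each library left out (triangles, calls not drawn). Cdkn1a stays between 1.69 and 1.99, while Cdkn1b lies at 1.00 without 6F a and at -0.27 without 6F b.

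On the log2 scale the 6F libraries differed most from each other for Cdkn1b, Cdkn1c, Cdkn2a and Cdkn2b, and not in 1 direction. Cdkn2a and Cdkn2b were higher in 6F a, by 1.07 and 0.83, and Cdkn1b and Cdkn1c were lower there, at -1.29 and -1.18. Cdkn1a, Cdkn2c and Cdkn2d lay at 0.28, 0.19 and -0.11. Over all genes the median absolute difference between the 6F libraries was 0.31. More than 2-fold differences, as for Cdkn1b, Cdkn1c and Cdkn2a, were found in 8.86% of genes. Between the ADRC libraries (a over b) Cdkn2a lay at -1.86, from 3 and 13 reads, and Cdkn2d at -1.07, from 16 and 40. Cdkn1a, Cdkn1b, Cdkn1c, Cdkn2b and Cdkn2c lay at 0.03, 0.17, -0.47, 0.40 and -0.28. Over all genes the ADRC median was 0.19, and 5.36% differed more than 2-fold. Each library is 1 sample, so this is a description of the pairs.

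Summed over the 7, the message level was 360 and 297 RPKM in 6F libraries against 105 and 113 RPKM in ADRC libraries. Cdkn1a made up 69.9% and 69.9% of that sum in 6F and 62.0% and 56.4% in ADRCs. Cdkn2a made up 16.0% and 9.21% in 6F against 1.17% and 3.96% in ADRCs. Cdkn2c made up 1.14% and 1.21% in 6F against 9.20% and 10.4% in ADRCs. The INK4 family as a whole held 21.6% ± 5.80 of the sum in 6F and 24.8% ± 4.53 in ADRCs (SD, n = 2 each), a difference within the spread. By CPM the family held 16.65% and 10.85% of the sum in 6F against 17.45% and 22.61% in ADRCs, and on that scale the groups do not overlap. Within the family the leading gene was Cdkn2a in 6F libraries and Cdkn2c in ADRC libraries. The family shares count all Cdkn2a reads, whether p16 or Arf. Shares depend on the length scaling: by CPM the mean share of Cdkn2a was 6.96% in 6F and 1.27% in ADRCs.

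**Figure D3:**
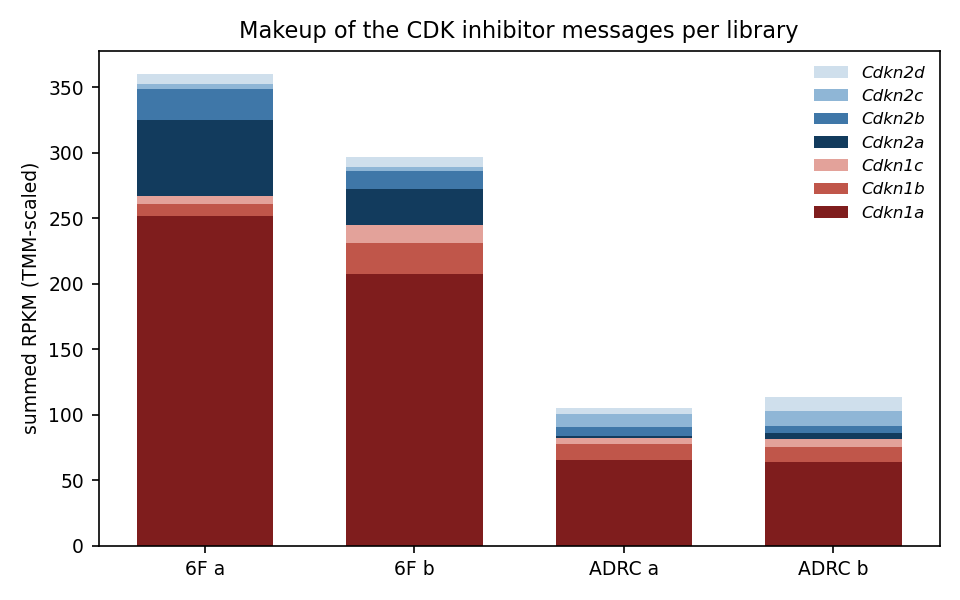
Summed RPKM of the 7 genes per library, stacked by gene, 6F left of ADRC, reds for CIP/KIP and blues for INK4. The 6F bars reach 360 and 297 and the ADRC bars 105 and 113, and the dark blue of Cdkn2a is visible mainly in 6F.

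The kinases that these proteins block were set beside them. Cdk4 and Cdk6 messages together had 52.1 and 46.0 RPKM in 6F against 112 and 107 RPKM in ADRCs. The INK4 sum was 1.78 and 1.13 times theirs in 6F and 0.203 and 0.297 times in ADRCs. Cdkn2a supplied 57.5 and 27.4 of the 92.6 and 52.1 RPKM of that sum in 6F. In ADRCs it supplied 1.23 and 4.49 of 22.7 and 31.8 RPKM. Those reads may be p16 or Arf, and Arf is not an INK4 protein, so the ratio may overstate INK4 message. Cdk1 and Cdk2 together had 4.13 and 4.26 RPKM in 6F against 31.0 and 30.6 RPKM in ADRCs. The CIP/KIP sum was 64.7 and 57.4 times theirs in 6F and 2.66 and 2.67 times in ADRCs. These are ratios of messages, not of proteins. The kinases did not move alike: Cdk4 fell by 1.36 on the log2 scale (edgeR adjusted p = 0.00124), and Cdk6 rose by 1.61 (adjusted p = 0.0013).

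The pathway genes below are read against the 24.2% higher and 22.8% lower of all genes tested, and no test compares a list with the rest. Of 11 listed cyclins and CDKs, 7 fell, 3 rose and 1 was not called, with a median log2 difference of -1.47. By share 27.3% rose and 63.6% fell, the first close to the share over all genes. The falls of the cyclins Ccna2 and Ccnb1 and of the kinase Cdk1 came to log2 differences of -5.05, -4.77 and -4.33. Cyclin D3 (Ccnd3) rose by 0.99, a call lost without ADRC a (log2 0.87) and without ADRC b (1.05). Fewer of the list, and fewer of all genes, were called higher without either ADRC library. Cyclin D2 (Ccnd2) was not called, at 1041 and 1325 CPM in 6F against 952 and 961 CPM in ADRCs. All 6 proliferation markers fell, with a median of -3.87, among them Plk1 at -5.43, Top2a at -4.49 and Mki67 at -4.39.

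Downstream of the kinases, 7 of 11 pocket protein and E2F genes fell, 2 rose and 2 were not called, with a median of -1.15. Rb1 rose by 1.72 and Rbl2, which encodes p130 of resting cells, by 1.76. Rbl1, which encodes p107 of cycling cells, fell by 1.82. The repressors E2f7 and E2f8, themselves E2F targets, fell, with log2 differences of -5.73 and -4.79, and E2f1 was not called (log2 -0.53, edgeR adjusted p = 0.154). The count that fell was 4 with the DESeq2 test and with scaling by library size alone, and it also dropped without either ADRC library. Over all genes, too, fewer were called lower in each of these settings.

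Of 12 genes for breakdown of the inhibitors, 5 fell, 3 rose and 4 were not called, with a median of -0.20. By share 25.0% rose and 41.7% fell, the first close to the share over all genes. Skp2 and Cks1b, which together mark p27 for destruction, fell, with log2 differences of -1.28 and -1.89. The Skp2 call was lost without ADRC b (log2 -1.12). The 3 that rose were Rnf123, Cul1 and Cul4b, with log2 differences of 1.15, 0.87 and 0.55. Skp1a and Cul4a were not called (log2 0.55 and -0.14). Dtl, which directs p21 to breakdown, fell by 3.85, and Cdc20, an activator of the anaphase-promoting complex, fell by 4.53. The 3 rises all lost their call without either ADRC library, and more of the list were called higher without either 6F library. Fewer were called lower without ADRC b. Calls over all genes moved the same ways in these fits.

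Of 13 genes of the p53 arm, 7 rose, 1 fell and 5 were not called, with a median of 0.59. Trp53 itself fell by 1.81 (edgeR adjusted p = 0.000485). Its targets Trp53inp1, Btg2 and Ccng1 rose by 3.20, 2.93 and 1.73, beside the 1.83 of Cdkn1a. Mdm2, another target, rose by 0.46, a call lost under 5 alternatives. Bax and Phlda3 were not called, with log2 differences of -0.18 and 0.59. Fewer of the list were called higher without either ADRC library, and more were called lower without 6F a. Calls over all genes moved the same ways.

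Polycomb complexes are known to repress the Cdkn2a and Cdkn2b locus in dividing cells. Of 13 listed genes of this repression and its reversal, 3 fell, 2 rose and 8 were not called, with a median of -0.20. That is 15.4% higher and 23.1% lower, the second close to the share over all genes. Kdm6b, a demethylase that opposes Polycomb, was not called (log2 -0.20). Ezh2, the methyltransferase of dividing cells, fell by 2.31 and its relative Ezh1 rose by 1.64. Bmi1, a known repressor of Cdkn2a, was not called, at 52.9 and 54.1 CPM in 6F against 44.8 and 48.2 CPM in ADRCs. Cbx7, another known repressor of Cdkn2a, rose: it had 194 and 174 reads in 6F libraries and 1 and 4 in ADRC libraries. The pooled ratio was 21.3 (95% counting interval 9.03 to 65.9). It was 14.5 (5.6 to 53.3) without ADRC a. Without ADRC b it was 48.6 (8.66 to 1923), which rests on 1 ADRC read. The count that fell was 1 with the DESeq2 test and with the 6F libraries thinned. It also dropped without either ADRC library and grew without 6F b, where calls over all genes moved the same ways.

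Of 12 other transcription regulators of these genes, 4 fell, 3 rose and 5 were not called, with a median of -0.28. That is 25.0% higher and 33.3% lower, the first close to the share over all genes. Myc, a repressor of Cdkn1a and Cdkn2b, fell by 2.87, with 7.73 and 26.4 CPM in 6F against 125 and 125 CPM in ADRCs. Its log2 difference was -2.23 without 6F a and -3.98 without 6F b. Id1, a repressor of p16 expression, fell by 1.58. Foxo4 and Foxo3, activators of Cdkn1b, rose by 1.67 and 1.00. The Foxo3 call was lost without ADRC a (log2 1.14) and without ADRC b (0.82). Smad3 fell by 0.58, and Sp1 and Smad4 were not called, with log2 differences of 0.02 and 0.40. Without either ADRC library 1 of the list rose and 2 fell, and without 6F a 5 rose. Over the 78 listed genes 20 rose and 33 fell, or 25.6% and 42.3%, and the share that rose is close to that of all genes. Without either ADRC library 9 rose, while the count over all genes dropped to 1258 without ADRC a and 1220 without ADRC b.

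**Figure D4:**
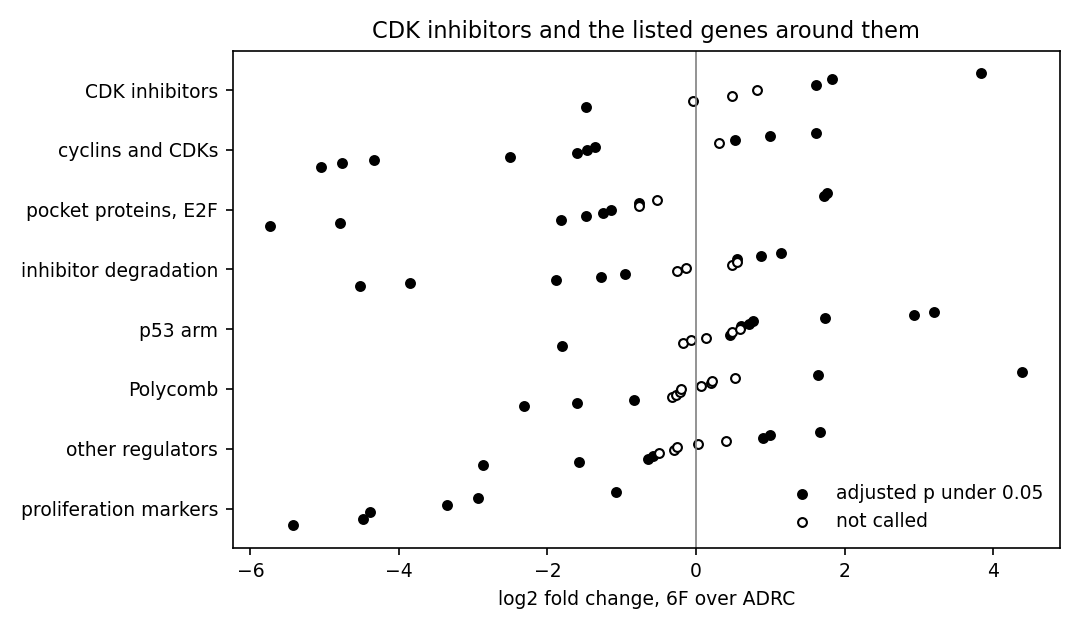
Log2 fold change (6F over ADRC) of the CDK inhibitor genes and of each listed gene, one row per list, filled where called and open where not. All 6 proliferation markers and 7 of 11 cyclins and CDKs lie left of 0 and called, while the p53 arm lies mostly right.

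The neighbours of the members on the chromosome did not share one direction. Mtap, on the other side of Cdkn2a from Cdkn2b, fell by 0.60 (edgeR adjusted p = 0.0281), a call lost under 4 alternatives. Beyond Cdkn2b, Dmrta1 had 0 reads in all 4 libraries. Beside Cdkn1a, Srsf3 fell by 0.83, lost without either ADRC library. Beside Cdkn1c, the potassium channel gene Kcnq1 had 108 and 52 reads in 6F libraries and none in ADRC libraries, at least 15.4-fold higher against a floor of 3 reads over the ADRC group. That bound was 10.6 and 19.8 without 6F a and 6F b, and 8.38 and 7.04 without ADRC a and ADRC b. On its other side Slc22a18 had 40 and 44 reads in 6F against 1 and 2 in ADRCs, a ratio of 8.09 (2.68 to 40.0), and its call was lost without either ADRC library. Kri1, 440 bases from Cdkn2d, fell by 1.92, and Faf1 beside Cdkn2c was not called (log2 0.41).

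By distance of log2(RPKM + 0.1) over the 4 libraries, among 12180 protein-coding genes, the pattern nearest to Cdkn1a was that of Timp3, at 239 and 256 RPKM in 6F and 59.8 and 60.4 RPKM in ADRCs. Nearest to Cdkn2a was Tcea3, at 36.0 and 27.1 RPKM in 6F and 1.38 and 3.18 RPKM in ADRCs. Nampt was nearest to Cdkn1b, B3gnt9 to Cdkn1c, Mtmr14 to Cdkn2b, Wdr70 to Cdkn2c and Trnt1 to Cdkn2d. The distance was 0.841 for Tcea3 and 0.220 to 0.435 for the other 6.

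In the authors' deposited table, the comparison named EDGE gives a fold change of 3.73 for Cdkn1a with a false discovery rate of 6.1e-06. For Cdkn2a the authors' deposited table gives 13.6 and a rate of 0.0625, and for Cdkn2b 3.15 and a rate of 1. For Cdkn2c the authors' deposited table gives -2.54, a fall, with a rate of 1. By that rate only Cdkn1a of the 7 passes 0.05 there.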

How the data were processed

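RNA was depleted of ribosomal RNA and sequenced in 4 libraries. The authors deposited 1 table in which, per the file headers, total exon reads are whole-number counts per gene and library. Reads were mapped to GRCm38, per the submitters' processing notes; the sources used here name no aligner or counter. The deposited table also holds the authors' EDGE comparison, whose fold change is a signed score (falls are negative folds), with its p-value and false discovery rate. It holds 52 further per-sample columns not used here. Column names carry no replicate number, so libraries are called a and b without order.

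Of 50600 genes 18045 had an exon length of 0 and were left out. Counts were fitted over all genes in R 4.3.3 by edgeR 4.0.16, which builds on limma 3.58.1 (filterByExpr, TMM, quasi-likelihood test, Benjamini-Hochberg adjustment over 12573 genes, threshold 0.05). CPM and RPKM use TMM-scaled library sizes. Positions are 1-based, from GENCODE M21, where 99.5% of gene IDs were found. The procedure was tested on simulated counts with ADRC levels, the real library sizes and 1 assumed spread for all genes. It recovered 6 of 50 genes changed 1.5-fold, 21 of 50 changed 2-fold, 49 of 50 changed 4-fold and 50 of 50 changed 8-fold. Of 11417 unchanged genes 3 were called. Changes of 2-fold or less were thus often missed at that spread, and a gene not called may still differ by that much. Larger changes may be missed for genes whose libraries differ more, such as Cdkn1b and Cdkn1c in 6F. Depth was 2273897 to 7593772 exon reads per library, and intervals and floors cover counting error only.

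Members and lists were chosen with earlier results of these data known. The rule for named genes takes all members, up to 4 called genes of a list by size and up to 2 not called by level, chromosomal neighbours and the nearest pattern, not all of them printed. Cdk2, Cdk4, Cdk6, Ccnd3, Rb1, Mdm2, Bmi1, Rnf123, Cul1, Cul4b and Smad3 fall outside that rule and were picked after their values were seen. So were those printed among the rest. Of 4 promoter motifs, 1 (the p53 half-site) was added after a promoter had been read. Promoter stretches were searched for 5 of 7 members; 2 further windows open inside an exon. Alternatives were DESeq2 1.42.0 size factors and Wald test, library size alone, keeping every gene with a read, keeping genes at a mean of 1 CPM or more, 6F libraries thinned to 2468012 reads and leaving out each library. Unique exon reads were looked at and then not used, and total exon reads were the only read measure kept. Leaving out 3 genes that collect ribosomal reads was added after seeing the data.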

Additional observations from a re-analysis of the deposited data

How the results depend on the processing

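No paired analysis was possible because the column names carry no replicate number. Scaling by library size alone moved the median log2 difference of all genes to 0.30, and no low-count filter to 0.46, against 0.07. With single libraries left out, genes called ranged from 1220 to 4454 higher and from 1165 to 4118 lower, against 3038 and 2870. CDK inhibitor genes called higher ranged from 2 to 5, against 3, and 1 was called lower each time. Listed genes called higher ranged from 9 to 27, against 20. Over the same 4 settings the log2 difference ranged from -0.27 to 1.00 for Cdkn1b, 0.14 to 1.29 for Cdkn1c, 1.16 to 2.02 for Cdkn2b, and -0.49 to 0.59 for Cdkn2d, which was 0.00 without 6F a. Cdkn2d was 0.19 with library size alone and 0.01 with no filter, and it was not called in any setting. The cause of these moves was not tested. Cdkn1a and Cdkn2a stayed called higher and Cdkn2c lower under every alternative run. The planned fit on unique exon reads was not run. Cdkn1c, Cdkn2a, Cdkn2b and Cdkn2d had 3 to 40 reads in each ADRC library.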
